A study of Mus musculus with 5 samples.

Results

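Heat shock proteins and other molecular chaperones were followed in mouse epiblast stem cells on 5 bead arrays. The genes were taken by a naming rule, as every probe whose symbol in the platform annotation starts with Hspa, Hspb, Hspd, Hspe, Hsph, Hsp90, Dnaja, Dnajb or Dnajc, or with Cct followed by a digit. The rule was chosen with earlier results of these data known. It gave 100 of the 25697 probes on the array, for 73 genes. A probe was taken as detected at a detection p-value under 0.01, and 65 of the 100 probes, for 55 genes, were detected on at least 1 array. On all 5 arrays 51 probes for 45 genes were detected, and 18 genes had no detected probe.

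The cells were of the line E3, of hybrid background; epiblast stem cells resemble the pluripotent epiblast after implantation. All cultures shared a first phase in KSR medium (serum replacement) that contained FGF2 at 5 ng/ml, over a feeder layer of mouse embryonic fibroblasts (CF1, inactivated), and then 3 h in a new medium. PD cells received 1 µM PD0325901, an inhibitor of the kinase MEK in the ERK pathway. CH cells received 3 µM CHIR99021, an inhibitor of glycogen synthase kinase 3. LIF cells received 1000 U/ml of the cytokine leukemia inhibitory factor, which signals through STAT3. PCL cells received all 3 agents together, and untreated (UT) cells received the medium without supplements. The labels name no FGF2 in any of the 5 media of the last 3 h, so its removal, as far as the labels tell, is shared by all groups, UT included. Fibroblasts share the dish in all of them, and in such a mixed RNA fewer cells of a type and less RNA per cell cannot be told apart.

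Chaperones bind unfolded or partly folded proteins and keep them from clumping while they fold. Small HSPs hold unfolding proteins without using ATP, HSP70 proteins bind and release clients in an ATP cycle that HSP40 (J-domain) partners start, HSP90 acts late on signalling proteins, and chaperonins enclose a protein in a chamber. Many of these genes have a constitutive and a stress-inducible part, the second driven by heat shock factor 1 through heat shock elements in the promoter.

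There was 1 array per condition, so no difference between conditions has a replicate check. Values are normalized log2 intensities, and a difference is the treated array minus UT on that scale, with the standard error between beads of the same probe (bead SE). That error leaves out culture, extraction and hybridisation. The one test across conditions was an additive limma fit over 12049 detected probes, with a term for each of PD, CH and LIF and Benjamini-Hochberg adjustment over all probes. Its error comes from how far PCL lies from the added single effects, 1 residual degree of freedom, so its p-values rank probes and do not measure the spread between cultures. For scale, the typical departure over all detected probes corresponds to an SD of 0.22 for a difference between 2 arrays. Between 10130 and 10981 probes were detected per array, and arrays correlated at 0.988 to 0.994 over the detected probes. The upper quartile of the scanner signal was 137 to 153 on the treated arrays and 178 on the UT array. All 10 epiblast marker genes looked up, such as Pou5f1 and Fgf5, were detected. As a check of the labels, Dusp6, a phosphatase gene induced by ERK, fell with PD at all 3 of its probes (difference of -1.48 at the brightest), the Wnt target Axin2 rose with CH (1.18) and the STAT3 target Socs3 rose with LIF (1.95).

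As a set, the chaperone probes lay near 0 in every comparison. Their median difference from UT was 0.00 in PD, -0.02 in CH, 0.00 in LIF and -0.06 in PCL, against 0.00, 0.00, 0.00 and 0.01 for all detected probes. At 1.5-fold or more, 3 of 58 chaperone probes detected in PD or UT differed, where 5.32% of all such probes did. Of these, 2 were higher (2.02% of all probes) and 1 lower (3.3%). In CH it was 2 of 63 probes, against 2.91% of all probes, 1 higher (1.51% of all probes) and 1 lower (1.4%). In LIF it was 1 of 61, against 1.69%, and that 1 was higher (0.862% of all probes higher, 0.826% lower). In PCL it was 5 of 59, against 6.26%, 3 higher (2.72%) and 2 lower (3.54%). The chaperone shares of 5.17%, 3.17%, 1.64% and 8.47% lie near those backgrounds and are no result about the set. A probe was counted with its readings on both arrays, also where 1 of them was not detected. That held for 1 Hspa2 probe, undetected in UT, in PD, CH and PCL. It also held for Dnajb4, the lower call in PD and undetected there, and for Dnajc6, the lower call in CH and undetected there. With arrays scaled on their 75th percentile, which moved the split of calls over all probes, the counts were 4 higher and 0 lower in PD, 4 and 1 in CH, 2 and 0 in LIF, and 3 and 4 in PCL. Over all probes the same scaling gave 457 higher and 295 lower in PD, 530 and 111 in CH, 308 and 92 in LIF, and 556 and 421 in PCL. No chaperone probe reached 2-fold in any of the 4 comparisons, where 0.665%, 0.168%, 0.0711% and 0.939% of all probes did. In the additive fit 2 of 65 chaperone probes passed for PD, both upward, against 2.56% of all probes in either direction and 0.788% upward. For CH and LIF limma called 0 of 65, against 1.16% and 0.722%, while 10 (15.4%) and 5 (7.69%) chaperone probes had an unadjusted p under 0.05, against 10.7% and 7.12% of all probes.

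**Figure D1:**
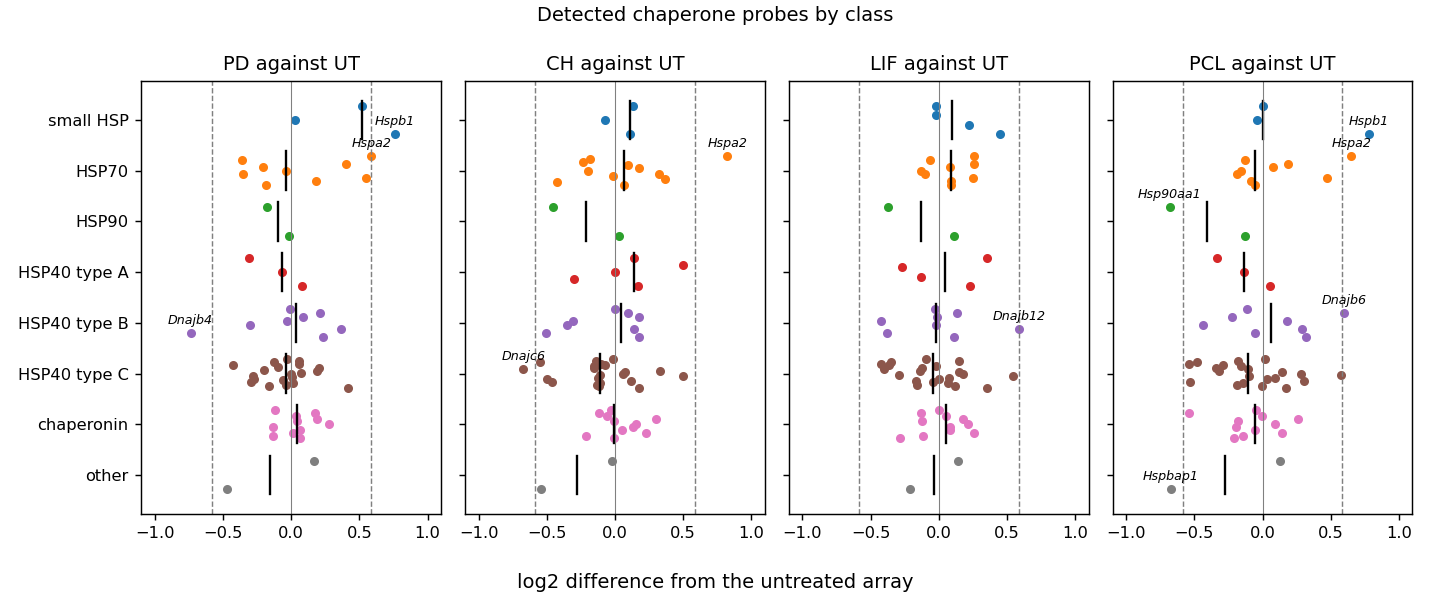
Log2 difference from the UT array of each detected chaperone probe, on the horizontal axis, by class down the page, in 1 panel per treated array, with dashed lines at 1.5-fold and black bars at class medians. Most points lie between the lines in all 4 panels, and Hspb1 is the small HSP to the right of them in PD and PCL.

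**Figure D2:**
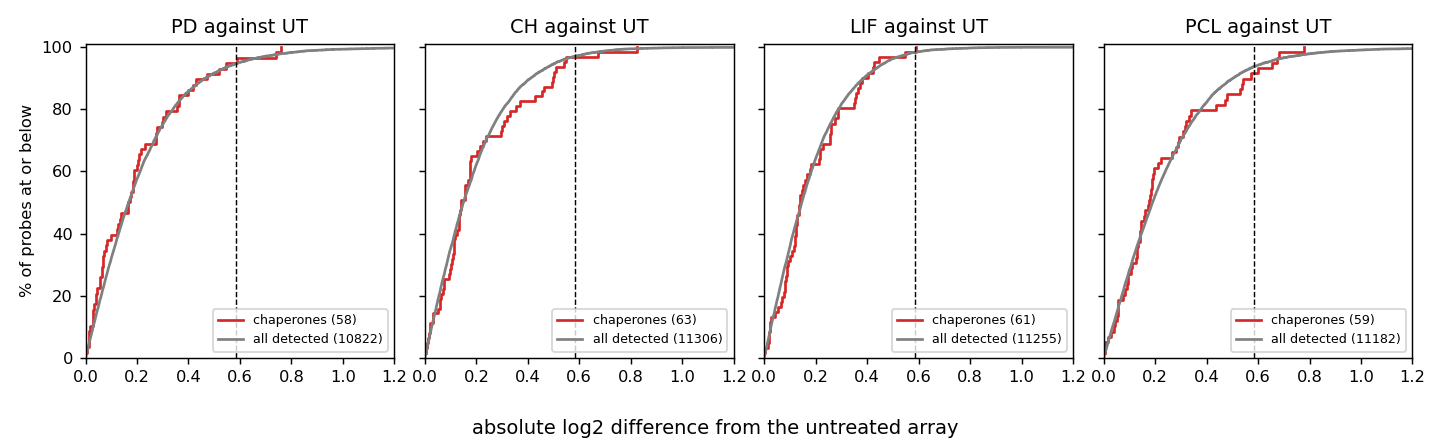
Percent of probes (y axis) at or below a given absolute log2 difference from UT (x axis), for the chaperone probes and for all detected probes (grey), in each of the 4 comparisons. The curves lie close together, with medians of 0.17 and 0.17 in PD and 0.18 and 0.19 in PCL for chaperones and all probes.

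Among the small HSPs, 4 of 6 genes were detected, 3 of them on every array. Hspb1 encodes HSP27, a small chaperone that also guards actin filaments. Its single probe (ILMN_2706269) read 8.62 in PD, 7.96 in CH, 8.07 in LIF, 8.63 in PCL and 7.86 in UT. Both arrays with PD lay above all 3 arrays without it. Hspb1 was 1.70-fold higher in PD than in UT (0.76 ± 0.16, bead SE) and 1.72-fold higher in PCL (0.78 ± 0.13), while CH and LIF alone gave differences of 0.11 and 0.22. In the additive limma fit Hspb1 rose with PD by 0.65 ± 0.12 (adjusted p = 2.46e-05) and had adjusted p-values of 0.985 for CH and 0.95 for LIF. The raw scanner signals were 396, 288, 341, 433 and 382 in PD, CH, LIF, PCL and UT. Before scaling, PD and UT were thus close, on arrays whose upper quartiles were 137 and 178. With the authors' own processed values the difference was 0.79 in PD and 0.80 in PCL, and the limma adjusted p for PD was 0.649. On those values limma called 0 of all probes for PD.

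The fibroblast markers were read beside Hspb1, since feeder cells share the dish. Of 15 marker genes 9 were detected (15 of 22 probes on each array), with Col1a2, Col3a1, Col5a2, Pdgfrb, Postn and S100a4 undetected. The linear level summed over all 22 probes, undetected ones included, was 8977 in PD, 9440 in CH, 8793 in LIF, 9628 in PCL and 8984 in UT. Bright probes weigh most in this sum, such as 1 Acta2 probe at a log2 level of 11.73 in PD. None of the 15 detected probes reached 1.5-fold in any comparison, where 5.32%, 2.91%, 1.69% and 6.26% of all probes did in PD, CH, LIF and PCL. With so few probes, none lies near those shares and is no result about the markers. They went both ways, with 9 above and 6 below UT in PD and 8 above and 7 below in PCL. In PD they ran from -0.58 at Lum, a matrix proteoglycan gene (-0.37 in PCL), to 0.58 at a probe of the smooth muscle actin gene Acta2 (-0.07 in PCL), and the Dcn probes, for another matrix proteoglycan, were at -0.43 and -0.48. Lox, which encodes a collagen cross-linking enzyme, was the 1 marker that passed for PD, with differences of 0.48 in PD and 0.56 in PCL. That is 1 of 15 detected probes, against 2.56% of all probes in either direction and 0.788% upward. The part of fibroblast RNA in the Hspb1 difference was not tested.

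The promoter of Hspb1 is shown because Hspb1 is the chaperone on which the PD result rests. Heat shock factor binds inverted repeats of a GAA unit, so promoter windows from RefSeq (GRCm38.p6), 250 bases before to 50 after each gene start, were searched on both strands. The letters searched were GAANNTTC and TTCNNGAA for 2 units, and for 3 units GAANNTTC followed by any 2 bases and GAA, or its reverse complement. A 3-unit match contains both 2-unit forms. A window was found for 60 of the 73 genes, with 79 windows in all, since some genes have several starts. The 250 bases before the Hspb1 start, chr5:135887669-135887918 on the plus strand, hold 2 GAANNTTC matches, in capitals, 117 to 110 and 97 to 90 bases before the start.
Hspb1: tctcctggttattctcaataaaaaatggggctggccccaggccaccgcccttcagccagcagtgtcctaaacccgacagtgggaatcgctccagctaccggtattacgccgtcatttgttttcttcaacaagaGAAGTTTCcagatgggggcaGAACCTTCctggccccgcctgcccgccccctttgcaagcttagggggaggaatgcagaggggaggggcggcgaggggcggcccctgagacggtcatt
GAANNTTC was present in 7.86% of all 32851 windows and in 21.5% of the chaperone windows, for 15 genes, among them Hspb6, Hspb8 and Hspa1a besides Hspb1. TTCNNGAA was present in 8.52% of all windows and 12.7% of chaperone windows. A match of letters is a description and not a shown binding site.

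Of the other 5 small HSPs, 3 were detected. Hspb8, a partner of the cochaperone BAG3 in selective autophagy, read 6.59 in PD, 6.20 in CH, 6.05 in LIF, 6.07 in PCL and 6.07 in UT. It was 0.52 ± 0.14 higher in PD than in UT and 0.00 ± 0.12 in PCL, so the 2 arrays with PD disagreed by more than the bead SE, and limma gave an adjusted p of 0.517 for PD. Hspb6 (HSP20) read 7.32, 7.21, 7.27, 7.25 and 7.29 in PD, CH, LIF, PCL and UT, all within 0.07 of UT. Hspb7 was detected in LIF alone, at 4.83, a level at the edge of detection. Hspb2 and Hspb3 were not detected on any array.

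The HSP70 class held 17 probes for 13 genes, 11 detected. Hspa8, the constitutive HSC70 that serves most folding in unstressed cells, has 2 detected probes that went apart. Probe ILMN_1260103 read 13.75 in PD, 13.53 in CH, 13.46 in LIF, 13.68 in PCL and 13.21 in UT, lowest in UT. Probe ILMN_2918479 read 13.41, 13.60, 13.71, 13.65 and 13.78 on the same arrays, highest in UT. The first was 0.55 ± 0.10 higher in PD than in UT and rose with PD in the additive limma fit by 0.30 ± 0.09 (adjusted p = 0.0234), whereas the second differed by -0.36 ± 0.06 with an adjusted p of 0.387. The gap between the probes in PD was 0.91, the largest of 24 gaps over the 6 genes with a pair of probes detected on every array, where the median gap was 0.16. The opposite sign itself depends on scaling: with arrays scaled to a common 75th percentile the probes differed by 0.82 and 0.07 in PD. The Hspa8 call was also lost without the intensity trend in the fit (adjusted p = 0.423). It was lost on the authors' values too (adjusted p = 0.712), but there limma called 0 of all probes for PD. Which probe reports Hspa8 mRNA better was not tested.

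Hspa2, an HSP70 best known from male germ cells, gave the largest CH difference of the set, at a dim probe. ILMN_3140383 read 5.36 in PD, 5.60 in CH, 5.03 in LIF and 5.43 in PCL and was not detected in UT (4.78). Taken against the lowest level detected in UT, it was at least 1.39-fold higher in PD, 1.64-fold in CH, 1.11-fold in LIF and 1.46-fold in PCL, so only in CH does the bound itself pass 1.5-fold. The other Hspa2 probe, ILMN_1223285, was detected throughout and read 7.28, 6.67, 7.18, 7.01 and 7.09 in PD, CH, LIF, PCL and UT, with a CH difference of -0.43 ± 0.09. The 2 probes therefore had opposite signs in CH, and neither passed the limma fit for CH (adjusted p = 0.296 and 0.135).

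Hspa9 (mortalin, the HSP70 of mitochondria) read 12.84, 13.14, 13.13, 13.12 and 13.04 in PD, CH, LIF, PCL and UT at its brighter probe, and its probes agreed to within 0.13 in every comparison. Hsph1 (HSP110), a nucleotide exchange factor for HSP70, read 9.84 in PD, 9.99 in CH, 10.09 in LIF, 10.01 in PCL and 10.20 in UT. Its difference was -0.36 ± 0.08 in PD and -0.19 ± 0.08 in PCL, and it did not pass for PD (limma adjusted p = 0.598). Hspa1a, the stress-inducible HSP70 and a sensitive readout of heat shock factor 1, stood at 5.31, 4.67, 5.17, 5.10 and 4.91 in PD, CH, LIF, PCL and UT. Hspa1a was undetected in CH and close to the detection limit elsewhere, and no comparison reached 1.5-fold. The probe for Hspa5 (BiP, the HSP70 of the endoplasmic reticulum) was detected on 1 array only, so its level is not described here.

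HSP90 was represented by Hsp90aa1, the inducible cytosolic form, and Hsp90b1 (GRP94), the form of the endoplasmic reticulum. Hsp90aa1 (ILMN_2752883) read 5.98 in PD, 5.70 in CH, 5.79 in LIF, 5.48 in PCL and 6.16 in UT. It was highest in UT and lowest in PCL, 0.62-fold (-0.68 ± 0.17), with differences of -0.18, -0.46 and -0.37 in PD, CH and LIF. None of the 3 terms passed in limma (adjusted p = 0.96, 0.416 and 0.848). The sum of the single differences was further from 0 than the PCL difference by 0.33. Probe ILMN_2752883 is dim, with raw scanner signals of 104 to 158 on arrays whose medians were 83 to 91. The other Hsp90aa1 probe (ILMN_2662557) was not detected on any array. Every difference shares the UT array, which read highest. Set against the agent-free arrays (median of 3), the difference was 0.19 in PD and -0.28 in CH, so the sign turned for PD. Hsp90b1 read 11.86, 11.91, 11.99, 11.75 and 11.88 in PD, CH, LIF, PCL and UT, within 0.13 of UT throughout.

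**Figure D3:**
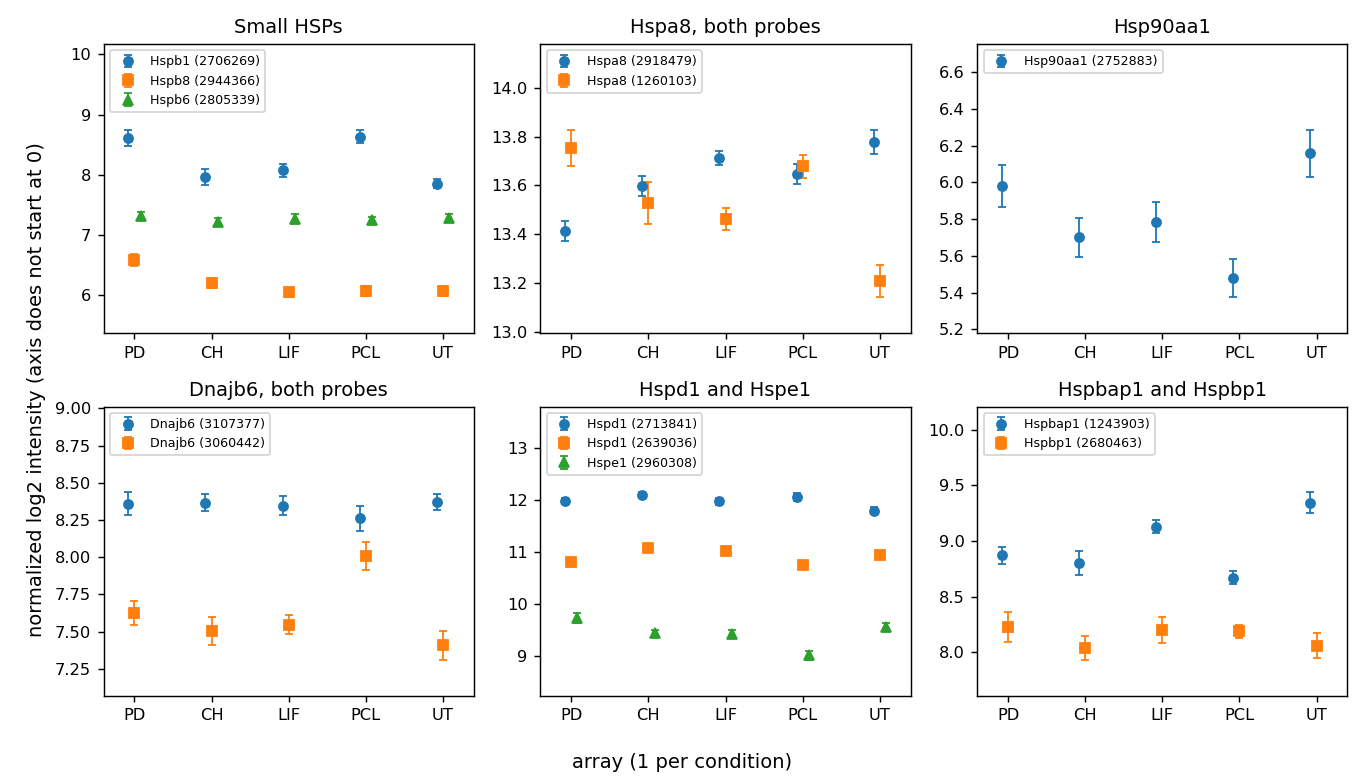
Normalized log2 intensity (y axis, not starting at 0) on each of the 5 arrays (x axis: PD, CH, LIF, PCL, UT) for small HSPs, both Hspa8 probes, Hsp90aa1, both Dnajb6 probes, Hspd1 with Hspe1, and Hspbap1 with Hspbp1. Error bars are bead SE and heights of different probes are not comparable; Hspb1 stands at 8.62 and 8.63 in PD and PCL, against 7.86 in UT.

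The HSP40 class was the largest, with 59 probes for 39 genes, 35 of the probes detected. Type A members carry the full bacterial DnaJ layout. Dnaja3, a mitochondrial partner of mortalin, read 10.01, 10.10, 10.16, 9.99 and 9.93 in PD, CH, LIF, PCL and UT. Dnaja2, a cytosolic partner of HSC70, read 6.45, 6.76, 6.49, 6.43 and 6.76, and Dnaja4 read 5.54, 5.31, 5.48, 5.48 and 5.61 on the same arrays. The Dnaja1 probe was detected in CH and LIF only (5.02 and 4.87). No type A probe reached 1.5-fold.

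Type B members include the heat-inducible HSP40. Dnajb1, that inducible form, read 10.84 in PD, 10.78 in CH, 10.72 in LIF, 10.92 in PCL and 10.61 in UT. It was 0.23 ± 0.08 higher in PD and 0.32 ± 0.07 higher in PCL than in UT, and it did not pass for PD (limma adjusted p = 0.661). Dnajb12, a J protein of the endoplasmic reticulum membrane, read 6.87, 6.64, 7.09, 6.79 and 6.50 in PD, CH, LIF, PCL and UT. Its LIF difference of 0.59 ± 0.13 was the 1 chaperone call for LIF, but PCL, which also contains LIF, differed by 0.29 ± 0.12, and the limma adjusted p for LIF was 0.649.

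Dnajb6, which suppresses the aggregation of polyglutamine proteins, has 2 probes. The platform annotation names a different transcript for each, and where the probes lie on them was not checked. ILMN_3060442 read 7.62, 7.50, 7.54, 8.01 and 7.41 in PD, CH, LIF, PCL and UT, and its PCL difference was 0.60 ± 0.14. ILMN_3107377 read 8.36, 8.37, 8.35, 8.26 and 8.37, with a PCL difference of -0.11 ± 0.10. The PCL array was thus the highest for the first probe and the lowest for the second. Dnajb4, an HSP40 close to Dnajb1 in sequence, was not detected in PD or CH and read 4.80 in LIF, 5.13 in PCL and 5.18 in UT. The PD reading was 4.44, and against the lowest detected level Dnajb4 was at least 1.15-fold lower than in UT.

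Of the 22 detected type C probes, 1 differed by 1.5-fold in 1 comparison. Dnajc6 (auxilin, which uncoats clathrin vesicles with HSC70) has a probe, ILMN_2733605, detected only in PCL (4.98) and UT (5.09). In CH it read 4.41, a difference of -0.67, and against the lowest level detected there Dnajc6 was at least 1.24-fold lower. The other Dnajc6 probe, detected on all arrays, differed by -0.11 in CH. Dnajc5g was detected in PCL alone (4.95). Dnajc19 and Dnajc15, are J proteins of the mitochondrial import motor. Dnajc19 read 11.60, 11.41, 11.69, 11.36 and 11.55 and Dnajc15 read 10.41, 10.05, 10.09, 9.87 and 10.21 in PD, CH, LIF, PCL and UT. Dnajc15 differed by -0.34 ± 0.08 in PCL, and Dnajc2, a J protein bound to ribosomes, read 10.39, 10.26, 10.44, 10.23 and 10.37.

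**Figure D4:**
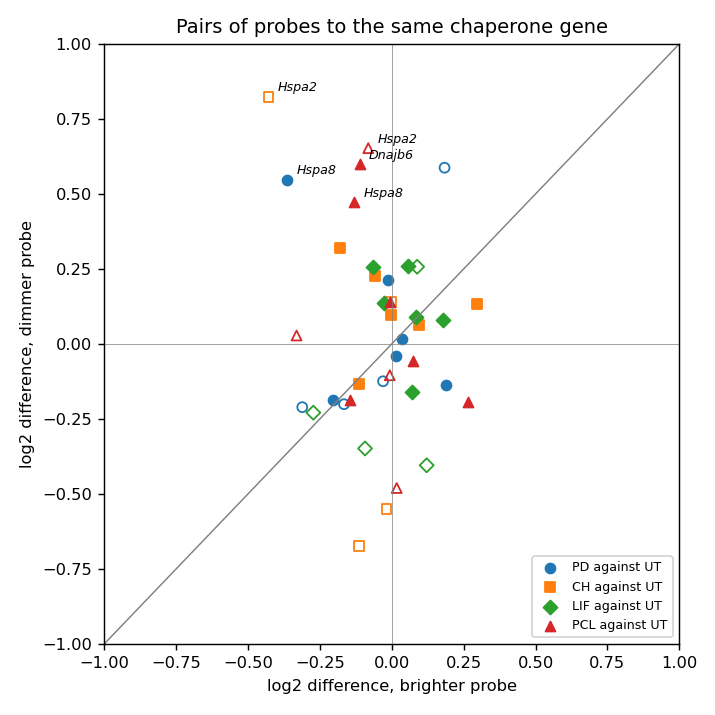
Log2 difference from UT of the brighter (x axis) and the dimmer (y axis) probe of a gene, for genes with more than 1 detected probe, over the 4 comparisons, with filled symbols where both probes were detected on every array. Points on the diagonal are pairs that agree; the Hspa8, Hspa2 and Dnajb6 pairs lie off it, with a gap of 0.91 for Hspa8 in PD.

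The chaperonin probes stayed close to UT. All 11 detected probes, for 9 genes, were detected on every array, and every one lay within 0.3 of UT in PD, CH and LIF and 90.9% of them in PCL, against 75.1%, 79.6%, 81.7% and 70.2% of all detected probes. That background includes dimmer probes, detected on only 1 of the 2 arrays. The limit of 0.3 lies just above the largest chaperonin differences in PD (0.274), CH (0.298) and LIF (-0.286), so these shares depend on it. Among probes detected on all 5 arrays, chaperonin median absolute differences were 0.12, 0.12, 0.12 and 0.15 in PD, CH, LIF and PCL. For all probes detected on all 5 arrays they were 0.15, 0.14, 0.13 and 0.18. Other classes also reached 100% within 0.3 in single comparisons, such as HSP70 in LIF. The CCT subunits build the cytosolic ring that folds actin and tubulin. Cct4 read 12.21, 12.09, 12.16, 12.03 and 11.94 in PD, CH, LIF, PCL and UT, Cct6a read 12.93, 13.02, 13.05, 13.01 and 13.05, and the brighter Cct3 probe read 12.08, 11.99, 12.10, 12.04 and 12.05. The probes of Cct2, Cct5 and Cct7 stood at 4.78 to 5.20 on every array, at the edge of detection, and hold little information on those subunits. They still count among the 11 probes. Hspd1 (HSP60) and Hspe1 (HSP10) form the mitochondrial chaperonin and its lid. The brighter Hspd1 probe read 11.98 in PD, 12.09 in CH, 11.97 in LIF, 12.05 in PCL and 11.79 in UT. Hspe1 read 9.73 in PD, 9.44 in CH, 9.43 in LIF, 9.02 in PCL and 9.56 in UT. In PCL the 2 genes differed from UT by 0.26 ± 0.10 and -0.54 ± 0.12, and the dimmer Hspd1 probe by -0.19. Neither passed any term of the limma fit, and the smallest adjusted p for Hspe1 was 0.258, for CH.

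The Hspd1 and Hspe1 starts lie 216 bases apart on chromosome 1 in opposite directions, and the stretch between them is shown because both genes share it. It holds 4 alternating heat shock units in a row, in capitals, in chr1:55088051-55088084 (plus strand, the direction of Hspe1), 89 to 72 bases before the Hspe1 start. The other chaperone windows with the 3-unit element belong to Dnajb6 (chr5:29735844-29735872, plus strand) and Hsph1 (chr5:149636280-149636308, minus strand, 16 to 28 bases after an annotated start).
Hspd1/Hspe1: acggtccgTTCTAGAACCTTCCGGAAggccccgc
Dnajb6: agctccgaGAATCTTCCGGAAcgctagac
Hsph1: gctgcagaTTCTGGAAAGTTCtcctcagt
The 3-unit element was in 0.603% of all windows and in 6 of 79 chaperone windows (7.59%), for these 4 genes. The 6 windows are not separate elements. The 2 windows of Dnajb6 overlap on the same match, as do the 2 of Hsph1, and Hspd1 and Hspe1 share theirs. The PD differences of these 4 genes were 0.19 and -0.14 (the Hspd1 probes), 0.17 (Hspe1), 0.21 and -0.01 (the Dnajb6 probes) and -0.36 (Hsph1). None of them passed for PD, where 2.56% of all probes did. Only exact matches were searched, and a link between the element and these differences was not tested.

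Chaperones of the endoplasmic reticulum answer to another promoter element, whose matches are shown because no heat shock element of 3 units was found in their windows. This endoplasmic reticulum stress element, CCAAT and CCACG with any 9 bases between them, was in 0.119% of all windows and in those of Hspa5, Hsp90b1 and Dnajc3, the last an inhibitor of the kinase PERK. The matches, in capitals, lie at chr2:34772017-34772051 (plus strand) for Hspa5, chr10:86705630-86705664 (minus strand, the farther of 2 from the start) for Hsp90b1 and chr14:118937819-118937853 (plus strand) for Dnajc3.
Hspa5: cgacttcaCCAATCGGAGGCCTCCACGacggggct
Hsp90b1: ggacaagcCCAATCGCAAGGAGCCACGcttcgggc
Dnajc3: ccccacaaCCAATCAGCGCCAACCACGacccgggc
Dnajc3 read 6.63, 6.99, 6.70, 6.77 and 7.06 in PD, CH, LIF, PCL and UT, with differences of -0.43 to -0.07, while Hsp90b1 stayed within 0.13 of UT. The STAT motif TTCNNNGAA, searched because LIF signals through STAT3, was in 8.3% of all windows and in 3 of 79 chaperone windows, for Cct5, Dnajc27 and Dnajc7. In LIF, Cct5, Dnajc27 and Dnajc7 differed from UT by -0.12, 0.07 and 0.15.

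Hspbap1 and Hspbp1 match the naming rule but are binding partners of chaperones. Hspbap1, a protein that binds HSP27, read 8.87 in PD, 8.80 in CH, 9.13 in LIF, 8.67 in PCL and 9.34 in UT, highest in UT. Its differences were -0.47 ± 0.12, -0.54 ± 0.14, -0.21 ± 0.11 and -0.67 ± 0.11 in PD, CH, LIF and PCL. None of its terms passed in limma (adjusted p = 0.34, 0.167 and 0.996). Because every difference uses the same UT array, 1 high UT reading moves all 4 values together, and with the median of the 3 arrays without the agent as the comparison the differences were -0.26 in PD, -0.33 in CH and 0.26 in LIF, so the sign turned for LIF. Hspbp1, an exchange factor for HSP70, read 8.23, 8.04, 8.20, 8.19 and 8.06, within 0.17 of UT.

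Genes that work with these chaperones were read from 4 lists. Over all probes 2.56%, 1.16% and 0.722% passed the fit for PD, CH and LIF. In a list this small, none passing lies near that background and is no result about the list. Of 35 listed cochaperones and folding partners, 28 had a detected probe. None of their 33 detected probes passed any term, and 1 differed by 1.5-fold, of 31 in PCL, where 6.26% of all probes did. It was the dimmer probe of Tcp1 (the first CCT subunit) at -0.59 in PCL, where its brighter probe differed by -0.06. Hsf2, a heat shock factor, read 5.60 in PD and 5.05 in UT, a difference of 0.55, with an adjusted p of 0.144 in limma. Bag3, the partner of Hspb8, differed by -0.09 in PD and 0.18 in PCL. Among 21 genes of endoplasmic reticulum folding and the unfolded protein response, 17 were detected and none passed; Atf3, a stress-induced transcription factor, was not detected in UT and was at least 0.42 higher in PD and 0.36 in PCL on the log2 scale. Of 9 genes of mitochondrial folding, 8 were detected and none passed, with Timm44, an anchor of the import motor, at 0.63, 0.36 and 0.58 in PCL at its 3 probes and Tomm70a, an import receptor, at -0.62. Of 9 stress-inducible genes that are not chaperones, 2 passed for PD, at 3 of 15 detected probes, against 2.56% of all probes: Gadd45b rose (0.89 in PD, 0.96 in PCL) and Gadd45a fell at both probes (-1.03 and -0.66 in PD, -1.09 and -0.83 in PCL). At 1.5-fold, 1 of the 15 was higher in CH (1.51% of all probes), Srxn1 at 0.73. Its other probes differed by -0.22 and 0.19 in CH. In PCL 2 of the 15 were higher (2.72% of all probes) and 2 lower (3.54%). Besides Gadd45b the higher ones included a Cdkn1a probe at 0.61, whose other probes differed by 0.54 and 0.39.

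The combination was set against the sum of the single treatments for each chaperone. The median size of the departure was 0.27 for the chaperones and 0.29 for all detected probes. The largest among probes detected on every array were 0.95 at Dnajb2, where the singles summed to -0.77 and PCL gave 0.18, and -0.80 at Dnajb12, where they summed to 1.09 and PCL gave 0.29. For Hspb1 the departure was -0.31, and for Hspa8 ILMN_1260103 it was -0.65. A departure rests on all 5 arrays, with UT counted in every single difference, and no residual degree of freedom is left to test it.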

How the data were processed

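Total RNA (400 ng, amplified for 12 h, Cy-3 label) of 5 cultures was read on Illumina bead arrays, 1 array per condition. Per the file headers, the deposited scanner tables hold a signal intensity, a bead standard error and a detection p-value per probe; BeadStudio is the authors' software, per the submitters' processing notes. The authors also deposited processed intensity values (normalization not given in the sources used here), with a median of 65 on every array; they served as an alternative only. Intensities were corrected with the limma 3.58.1 normexp model (R 4.3.3; negative controls inferred from detection p-values, offset 16), quantile-normalized over the 5 arrays and put on the log2 scale; the offset compresses differences of dim probes. A probe detected on 1 of 2 arrays only has a bound against the lowest detected level of the other array. Differences counted at 1.5-fold. The additive limma fit (lmFit, eBayes with intensity trend) had infinite prior degrees of freedom, so probes of like intensity share 1 spread; it was tested on simulated data. All 100 probes matched the reference gene table. Sequences are RefSeq's, GRCm38.p6.

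Genes named with values were those called or passing, the 3 highest by mean level and the 2 with the largest difference in each class, and genes whose probes disagreed; further genes, such as Hspa1a, Hspa5, Dnajc3 and those of promoter elements, were chosen after their values were seen. The members and lists were chosen with earlier results of these data known. Precision is limited by the number of arrays. Alternatives covered scaling, background correction, offset, the authors' values, detection filter, probes per gene, fold limit, comparison arrays and the intensity trend.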

Additional observations from a re-analysis of the deposited data

How the results depend on the processing

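Counts of chaperone probes past 1.5-fold were small and moved with most settings. For PD (3 probes) the count was 1 without background correction, with an offset of 50, among probes detected on all 5 arrays, and when set against the agent-free arrays (median of 3), 5 on the authors' values and 0 at 2-fold; over all probes the same settings gave 98, 163, 349, 361, 947 and 72, against 576. For CH (2 probes) it was 5 when arrays were scaled on their 75th percentile and 0 without background correction, with the offset of 50, among probes detected on all arrays, with 1 probe per gene, at 2-fold and against the other arrays; over all probes these gave 641, 31, 54, 175, 216, 19 and 193, against 329. For LIF (1 probe) it was 2 after the percentile scaling, 3 on the authors' values, and 0 without background correction, with the offset of 50, at 2-fold and against the other arrays; over all probes these gave 400, 551, 10, 27, 8 and 109, against 190. For PCL (5 probes) it was 1 without background correction, 2 with the offset of 50, 3 with 1 probe per gene and 0 at 2-fold; over all probes these gave 159, 250, 482 and 105, against 700. The counts over all probes thus moved with the same settings. The fit for PD called 2 chaperone probes, against 0 on the authors' values, where limma called 0 of all probes for any term although 916, 890 and 663 had an unadjusted p under 0.05 for PD, CH and LIF, and 1 with 1 probe per gene or without the intensity trend. The cause was not tested. Percentile scaling moved the share of higher calls over all probes to 60.8% in PD, 82.7% in CH, 77% in LIF and 56.9% in PCL, against 38%, 52%, 51.1% and 43.4%. Filters on probes cannot change the difference of a single probe. Of the other 597 single-probe values recomputed, 467 moved by less than their error, 127 moved by more and 0 called values changed sign. The other 3 were additive-fit effects for PD, of Hspb1 and an Hspa8 probe, whose adjusted p rose past 0.05. Differences that fell under 1.5-fold are not counted in those 3. Dnajb4 in PD, for one, went from -0.74 to -0.21 without background correction and counts as moved by more. Hspb1 stayed past 1.5-fold in PD (0.60 to 0.79) and PCL (0.61 to 0.80) under the settings run at that limit; its adjusted p for PD was 1.18e-05 to 0.00818, and 0.649 on the authors' values. No paired analysis was possible because each group has 1 array.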
